A study of Xenopus laevis with 9 samples.

Results

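The genes of the muscle contractile apparatus and of muscle determination were examined in lenses and corneas of *Xenopus laevis* tadpoles. They were picked by name alone. A probeset, the group of short probes that reports 1 transcript on the array, was included when its annotation gave 1 gene symbol and that symbol began with the stem of a myosin heavy or light chain, troponin, tropomyosin, alpha actinin, muscle actin, myosin binding protein, tropomodulin, muscle creatine kinase, titin, nebulin, desmin, calsequestrin, ryanodine receptor, parvalbumin, Ldb3, Mef2 or myogenic factor gene. This gave 88 of 15476 probesets, which report 50 genes. *Xenopus laevis* is allotetraploid and carries many genes as a pair of homoeologs, named L and S after the longer and shorter chromosomes, and with these kept apart the probesets report 65 symbols. To avoid confusion with the sample groups L and S below, homoeologs are written with a point, as in mef2d.L. A further 3 probesets with several symbols also fit the names and were not counted.

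All tadpoles were wildtype and at Nieuwkoop and Faber stage 50. There were 3 groups of 3 arrays. The L arrays (L1, L2 and L3) held whole lenses, in pools of 5. R1, R2 and R3 held corneas taken 3 days after the lens had been removed, at a time when cornea to lens transdifferentiation (CLT) is under way, and S1, S3 and S4 held corneas taken 3 days after a sham operation that left the lens in, both in pools of 7 to 8. These pool sizes are those of the labels, and the study's methods give larger ones. The study's legends say that lenses for L were removed from the same tadpoles that later gave the R corneas, and the dissected corneas held some epidermis. Pools are mixtures of animals, and in bulk tissue fewer cells of a type and less RNA per cell cannot be told apart.

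In striated muscle, myosin heavy and light chains form the thick filament, which pulls on a thin filament of actin, tropomyosin and the troponin complex. Calcium released from calsequestrin-loaded stores binds troponin C, which moves tropomyosin off the myosin sites, while troponin I is the inhibitory subunit and troponin T ties the complex to tropomyosin. Alpha actinins anchor thin filaments at the Z disc, tropomodulins cap their slow growing ends, and creatine kinase regenerates ATP. Fast, slow and cardiac fibres use different genes for most of these parts. Myod1, Myf5, Myf6 and Myog are basic helix-loop-helix factors that commit cells to muscle, and Mef2 proteins work with them. Nearly every animal cell also has an actomyosin system, built from nonmuscle myosins (Myh9, Myh10), their light chains (Myl6, Myl9, Myl12b), cytoplasmic tropomyosins and the alpha actinins Actn1 and Actn4. Symbols starting with the chosen stems cover both systems, so the results are ordered by role. Mylip, an E3 ubiquitin ligase, and ckmt1b, a mitochondrial creatine kinase not confined to muscle, were included through their spelling.

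The values are RMA intensities on a linear scale, and differences are on the log2 scale. Array medians ran from 2.99 to 3.29, the upper quartile from 8.99 to 9.86 in L and from 17.5 to 20.4 in R and S, and the 5th percentile from 0.984 to 1.06. S4 lay close to the mean of the other S arrays. The variance of its distance from that mean was 0.232 of the variance between S1 and S3, where independent arrays of equal spread give 0.75. The value without S4 is therefore given for mybph.S, tnnt3.S, actn2.L and myog.L. It is not given for every call that ends without S4. In the comparison of L with S below, 22 members were higher without S4, beside 30 with all arrays. The labelled tissues carried their defining genes. The summed intensity of 7 crystallin genes was 9058 to 9486 in L, 22.3 to 81.1 in R and 8.97 to 13.2 in S, and that of 17 cornea and epidermis genes was 92.6 to 119 in L against 2494 to 2720 in R and 2648 to 2918 in S. Summed photoreceptor genes (17 genes) were 125 to 317 in L, 32.7 to 576 in R and 20.3 to 21.4 in S. Single genes made up much of these sums. In L, nrl.S read 73.0, 68.8 and 67.0, with 5.69 or less in the corneas, and rom1.L gave 288 in R2. The sums of other lists also separated R from S, with neuron genes at 131 to 188 in R and 108 to 119 in S and pigment cell genes at 91.2 to 138 and 184 to 207. The neuron sums differed most in tubb3.L (22.8 to 66.5 in R, 3.40 to 13.8 in S). Of 6 pigment cell probesets, 3 lay wholly lower in R and 2 wholly higher, among them mitf.L (2.36 to 2.72 against 1.90 to 2.15). Over all 15476 probesets 1519 lay wholly lower and 1909 wholly higher. The part of these lists in the results below was not tested. No muscle sample was among the arrays, so a probeset that reads low here has no positive control. Because probes differ in affinity, a higher intensity for 1 gene than for another is not to be read as more RNA.

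Most of the muscle probesets read low. Of the 88, 50 (56.8%) stayed below an intensity of 4 on every array, compared with 5511 of all 15476 (35.6%), and the median of group means was 2.17 in L, 1.60 in R and 1.38 in S. Several genes that define skeletal muscle were among the low ones, though not all. For acta1.S, the skeletal alpha actin, intensities were 0.919 to 1.28 in L, 1.14, 0.999 and 1.16 in R and 0.995, 1.15 and 0.937 in S, so all 9 arrays lay close to the 5th percentile and the groups overlapped. The fast regulatory light chain mylpf.L read 1.28 to 1.95 in L, 1.34 to 1.65 in R and 1.40 to 1.61 in S. Of the determination factors, myod1.L ranged from 1.07 to 1.43 and myf5.L from 1.55 to 3.70 over the 9 arrays. In contrast, 1 of 3 probesets of muscle creatine kinase, ckm.L, read 59.7 to 94.0 in the corneas, and the calcium pump gene atp2a1.S, outside the naming rule, read 84.6 to 126 there with 1 of its 2 probesets. At the other end, the highest value of any member was 497, in R3, from a probeset of the regulatory light chain myl12b.L.

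**Figure D1:**
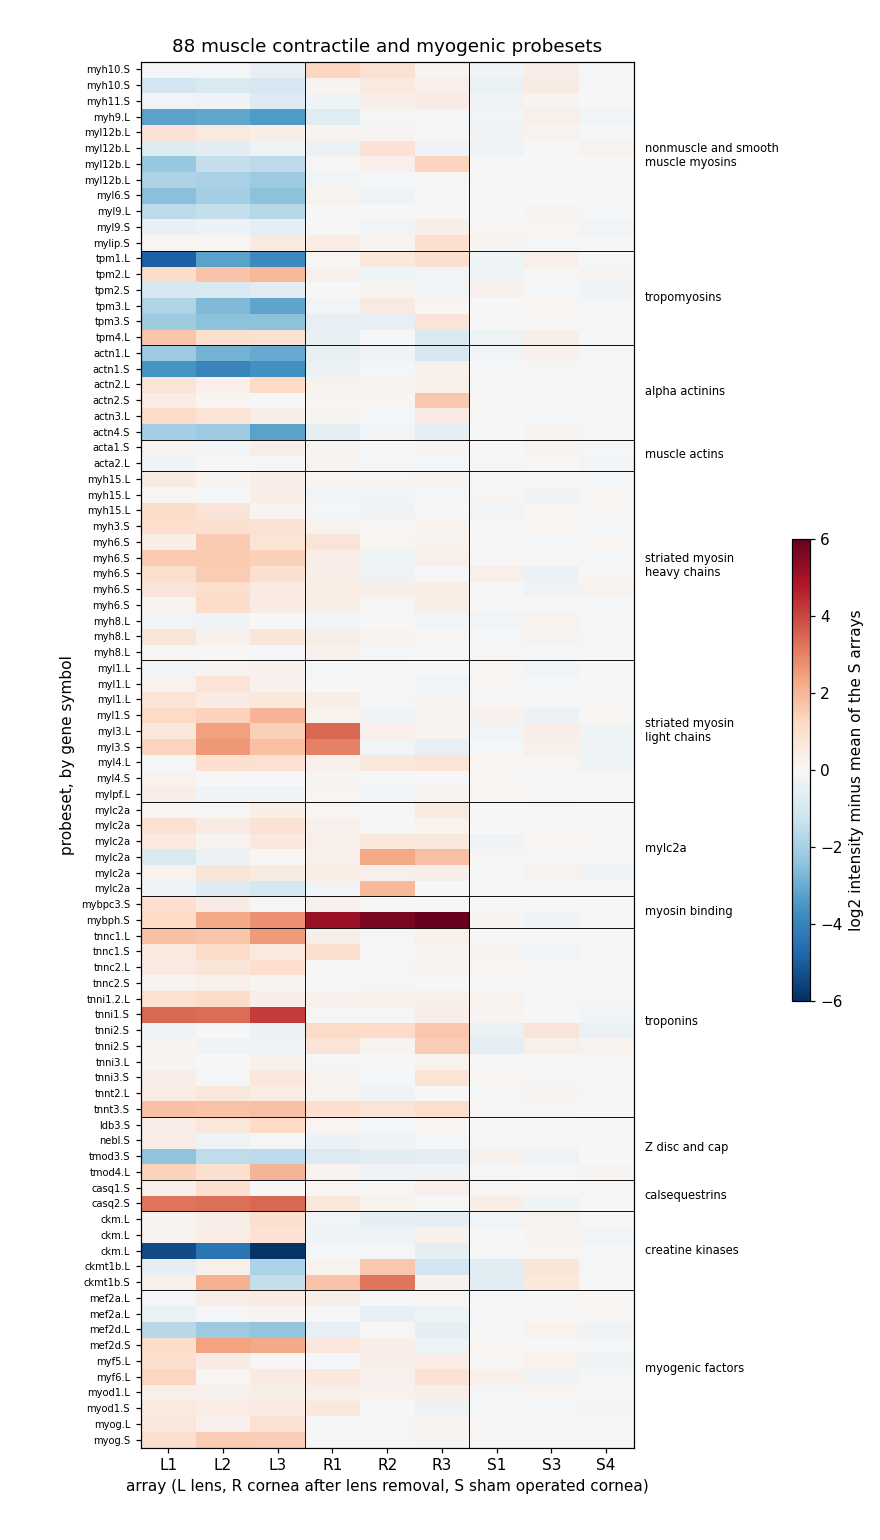
Colour gives the log2 intensity of each of the 88 probesets (rows, by gene symbol and role) on each of the 9 arrays (columns) after subtracting the mean of the S arrays. The R columns are pale apart from mybph.S and a few single cells such as myl3 in R1. The L columns are mostly blue for nonmuscle myosins and tropomyosins, blue for actn1 and actn4, and red for tnni1.S and casq2.S.

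The comparison of R with S asks which of these genes differ between corneas in CLT and sham operated corneas. The sham operation raised and replaced the outer cornea only, whereas lens removal also ruptured the inner cornea. Effects of CLT and of that further surgery therefore cannot be told apart. Myosin binding protein H (mybph.S) and the fast skeletal troponin T gene tnnt3.S were higher in R, and no member was lower. These are 2 of 88 members at an adjusted p under 0.05 (limma), beside 0.485% higher and 0.64% lower among all 15476 probesets. Without adjustment 8 members were higher and 1 was lower at p under 0.05. The median difference over the 88 members was 0.12, and over all probesets it was 0.06.

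Mybph encodes a thick filament protein that binds the myosin rod in skeletal muscle. In the probeset for mybph.S the intensity was 47.4, 64.4 and 91.6 in R1, R2 and R3, and 1.43, 1.13 and 1.35 in S1, S3 and S4. Lenses read 2.97, 6.30 and 8.74. All R arrays were thus far above all others, the S arrays lay just above the array floor, and the lenses fell between them with no overlap. The R minus S difference was 5.66 (SE 0.38, limma adjusted p = 0.000242), and because the S values lie near the floor its size depends on the offset. It passed in each of the 20 alternatives tried, with adjusted p from 3.3e-05 to 0.0265 and a difference from 2.99, with an offset of 8, to 5.89. Without S4 it was 5.69 (adjusted p = 0.00307). Within R, mybph.S was lowest in R1, the array with the highest crystallin sum, 81.1, and highest in R3. R2, with the lowest crystallin sum, 22.3, lay between them. Other members of both systems were also highest in R3 within R, among them tnni2.S, tpm1.L and actn1.S, while myl3.L was highest in R1 and ckmt1b.S in R2. The 27 other skeletal muscle genes measured summed to 242 to 265 in R and 178 to 249 in S, with overlap, and their part in the difference was not tested. The difference rests on 1 probeset. The study also measured Mybph by real-time PCR. Those values were not analysed here, and the array value is not to be read as checked by them.

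The gene mybph.S lies on chromosome 2S in the RefSeq annotation of the *Xenopus laevis* v10.1 assembly. The other myosin binding protein measured, the cardiac form mybpc3.S, read 1.38, 1.13 and 1.15 in R and 1.12, 1.19 and 1.14 in S, and its groups overlapped. Its R minus S difference was 0.08 (adjusted p = 0.906).

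Tnnt3 encodes troponin T of fast skeletal muscle. The tnnt3.S probeset read 4.67, 3.999 and 4.84 in R, 2.44, 2.22 and 2.28 in S and 7.88, 7.45 and 7.83 in L, so the groups were ordered S, R, L without overlap. In R minus S the difference was 0.96 (SE 0.15, adjusted p = 0.0202). The call was lost in 7 of 20 alternatives. It did not pass without S1 (adjusted p = 0.0700), without S3 (0.0712) or without S4 (0.113), nor with cyclic loess (0.0605), with the pair of groups fitted alone (0.0664) or with trended and robust variances (0.107).

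Fast troponin I came next among the troponins without passing. For tnni2.S, which encodes the inhibitory subunit of fast fibres, the x probeset read 10.01, 10.1 and 13.9 in R and 3.40, 7.83 and 3.49 in S. S3 was well above the other S arrays but below every R array. R minus S was 1.30 (SE 0.32, adjusted p = 0.104), and it passed with array weights (0.0311) and without S3 (0.0189). The second tnni2.S probeset gave 3.94, 2.71 and 6.75 in R against 1.61, 2.88 and 2.70 in S, with overlap (difference 0.84, adjusted p = 0.309). The x ending marks a probeset whose probes can also match other transcripts. Tnnc2.L, the fast calcium binding subunit, read 1.03, 0.947 and 1.10 in R and 1.06, 0.971 and 0.932 in S (adjusted p = 0.919).

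**Figure D2:**
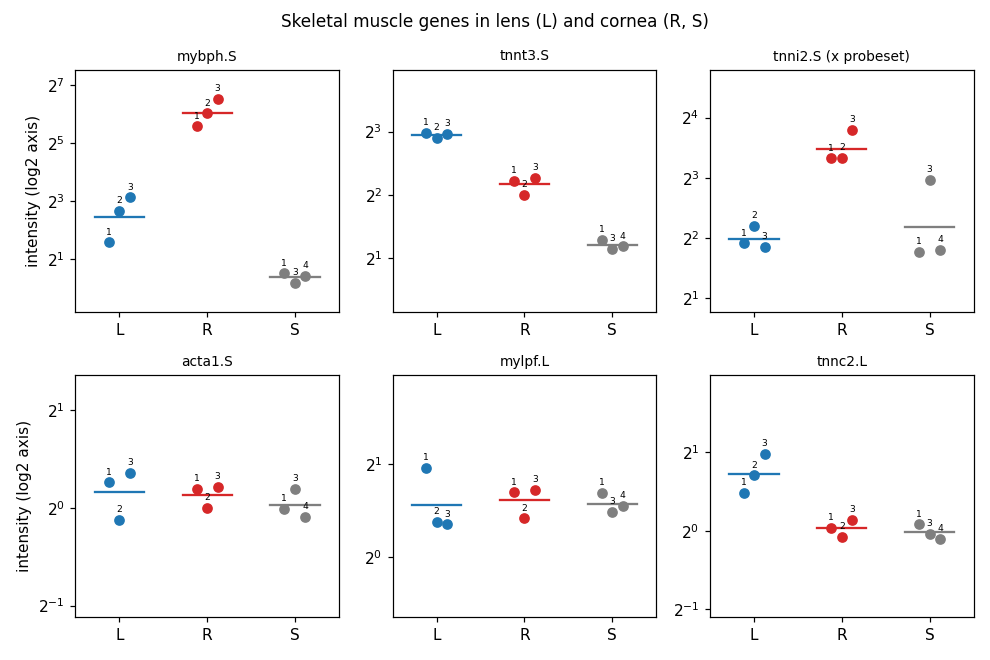
Points give the intensity on each array (log2 axis, array number above each point) and lines the geometric mean of each group of 3, for 6 skeletal muscle probesets. Mybph.S is at 47.4 or more in R and at 1.43 or less in S, and tnnt3.S forms separate levels in all groups. Acta1.S, mylpf.L and tnnc2.L stay below 2 on every array.

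In the other roles no member passed, and the member with the smallest p in each is given here. Among nonmuscle myosins this was the s probeset of the heavy chain gene myh10.S, at 123, 95.6 and 58.1 in R and 44.3, 64.7 and 46.6 in S, with R3 inside the range of S (difference 0.79, adjusted p = 0.262, and 0.0360 with array weights). In the striated heavy chains it was a probeset of myh6.S, a cardiac alpha chain in mammals (0.41, adjusted p = 0.363). For the striated light chains it was myl4.L, an atrial and embryonic chain in mammals (0.58, adjusted p = 0.425).

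Tmod3.S, a tropomodulin found outside striated muscle, read 2.47, 2.73 and 2.94 in R against 5.27, 3.57 and 4.37 in S, and was the only member at an unadjusted p under 0.05 on the lower side (−0.68, adjusted p = 0.276). Tpm4.L differed by −0.48 (adjusted p = 0.472), actn1.L by −0.55 (0.396), casq2.S by 0.28 (0.608), acta1.S by 0.10 (0.836) and the determination gene myod1.L by 0.30 (0.377). None of these passed.

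Lenses and sham operated corneas were compared to place the members in the tissue that CLT leads to. The lenses were taken at the operation itself, whereas the sham operated corneas had been cut and had healed for 3 days. Effects of tissue, of wounding and of time therefore cannot be told apart in this comparison. Lower in the lens were 6 of 12 probesets of nonmuscle and smooth muscle myosins and their partners. So were 4 of 6 probesets of tropomyosins and all 3 of actn1 and actn4. A set of slow, cardiac and fast striated genes was higher. Of the 88 members, 30 probesets (23 genes) were higher in L and 16 (13 genes) were lower, where 22.9% of all probesets were higher and 30.6% were lower. With cyclic loess the split was 17 higher to 15 lower, beside 3442 higher and 3722 lower of all 15476 probesets. The higher share of members was then below that of all probesets. Without cyclic loess the median difference was 0.33 over members and 0.02 over all probesets.

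The split differed with intensity. Among the 50 members below 4 on every array, 18 were higher and 1 was lower in L, and among all 5511 probesets that low, 22.1% were higher and 7.55% lower. Their median difference was 0.49, beside 0.26 for all low probesets. The 38 brighter members divided into 12 higher and 15 lower, with a median of −0.41 where all bright probesets had −0.48.

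Of the nonmuscle and smooth muscle myosins and their partners, mylip.S among them, 6 of 12 probesets were lower in the lens and 1 was higher. The shares among all probesets were 30.6% and 22.9%. Myh9.L, the nonmuscle myosin heavy chain IIA, read 14.1, 15.1 and 12.3 in L, 78.6, 124 and 124 in R and 115, 161 and 117 in S. The lens arrays lay far below all cornea arrays, with no overlap, and L minus S was −3.23 (SE 0.23, adjusted p = 3.01e-06). The essential light chain myl6.S, at 33.7, 45.7 and 34.5 in L and 184, 186 and 197 in S, differed by −2.33 (adjusted p = 7.9e-06). The regulatory light chain myl9.L was at 19.2 to 23.7 in L and 59.3 to 70.6 in S (−1.58, adjusted p = 2.56e-05), whereas its homoeolog myl9.S did not pass (116 to 136 in L, 151 to 185 in S, adjusted p = 0.0680).

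Tropomyosins all passed, 4 lower and 2 higher of 6 probesets, beside 30.6% lower and 22.9% higher among all probesets. Tpm1.L, from a gene with muscle and cytoplasmic forms, had the widest gap, with 2.24, 7.45 and 4.74 in L against 56.6, 84.2 and 65.6 in S and 71.7, 104 and 131 in R (L minus S −3.98, SE 0.41, adjusted p = 3.69e-05). Both homoeologs of tpm3, which has cytoplasmic and slow muscle forms, were lower in the lens, by −2.53 for tpm3.L and −2.35 for tpm3.S. Tpm4.L, a mostly nonmuscle gene, went the other way at low intensity (3.17 to 5.27 in L, 1.33 to 2.15 in S, 1.21, adjusted p = 0.00535). The probeset shared by both tpm4 homoeologs, which is not a member, was lower in L without overlap. It read 2.01 or less in L, 2.497 or more in S and 3.817 or more in R. The higher lens value of tpm4.L thus did not hold for every tpm4 probeset.

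The alpha actinins comprise nonmuscle and sarcomeric forms. Actn1 and Actn4, the nonmuscle forms that crosslink actin at adhesions, were lower in L in all 3 probesets. Actn1.S read 3.58, 2.70 and 3.31 in L and 40.4, 43.4 and 41.1 in S (−3.71, SE 0.19, adjusted p = 4.43e-07), actn1.L differed by −2.69 and actn4.S by −2.47. The sarcomeric forms actn2.L (0.76, adjusted p = 0.0166) and actn3.L (0.77, adjusted p = 0.0158) were higher in L, at intensities of 2.40 or less, and neither passed with cyclic loess (0.0927 and 0.0774). The actn2.S probeset did not pass (1.05 to 1.44 in L, 1.02 to 1.14 in S, 0.16, adjusted p = 0.726). Actn2.L did not pass without S4 (0.0512), nor actn3.L without L1 (0.0559) or S3 (0.0542).

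Striated myosin heavy chains were higher in the lens or did not pass, and most light chain probesets did not pass. Of 12 heavy chain probesets, 7 were higher and none was lower, and of 9 light chain probesets 2 were higher. Among all probesets 22.9% were higher, and 22.1% among those below 4 on every array, so the light chain count was near that share. The shares lower were 30.6% and 7.55%, and 10 of the 12 heavy chain probesets stayed below 4 on every array. For myh6.S, the probeset with the smallest p read 4.10, 4.10 and 3.80 in L, 1.83, 1.18 and 1.70 in R and 1.49, 1.39 and 1.32 in S (1.52, SE 0.19, adjusted p = 0.00013). In all, 4 of 5 myh6.S probesets were higher in L. The calls of myh8.L, myh15.L and 1 of these myh6.S probesets were lost in 7 to 10 of 19 alternatives, cyclic loess among them. Myl1.S, the fast essential light chain, read 3.19, 3.73 and 5.86 in L against 1.66, 1.12 and 1.51 in S (1.54, adjusted p = 0.000869). Of the 6 mylc2a probesets, a light chain gene to which no role was assigned, 2 were higher in L, led by an x probeset at 0.77 (adjusted p = 0.0048). The other call (0.50, adjusted p = 0.0495) had overlapping L and S arrays and was lost in 15 of 19 alternatives.

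Troponins were higher in the lens or did not pass. None of 12 probesets was lower and 7 were higher in L, beside 30.6% lower and 22.9% higher among all probesets. Of the 12, 7 stayed below 4 on every array, and among all probesets that low 7.55% were lower and 22.1% higher. Tnni1.S, the inhibitory subunit of slow fibres, read 15.1, 14.1 and 25.4 in L, 1.44, 1.46 and 1.81 in R and 1.54, 1.39 and 1.23 in S. The lens arrays were all above 14 and the cornea arrays all below 2 (L minus S 3.67, SE 0.24, adjusted p = 1.87e-06, with S near the floor). Tnnc1.L, the slow and cardiac calcium binding subunit, differed by 2.01 (2.77 to 5.12 in L, 0.848 to 0.867 in S, adjusted p = 8.48e-05), and since its S values lie below the 5th percentile that difference has no exact size. Tnnt3.S was higher by 1.74 (adjusted p = 1.05e-05). The calls of tnni1.2.L, tnnc1.S and tnnt2.L were lost in 2 to 10 of 19 alternatives, cyclic loess among them.

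Calcium storage showed a similar contrast. Casq2.S, the calsequestrin of cardiac and slow muscle, read 12.4, 13.2 and 14.6 in L, 2.15, 1.53 and 1.32 in R and 1.70, 1.13 and 1.25 in S, a difference of 3.32 from S (SE 0.23, adjusted p = 2.48e-06) with no overlap. The fast form casq1.S did not pass (0.947 to 1.86 in L, 0.885 to 1.01 in S, adjusted p = 0.168). At the thin filament ends, tmod4.L, the skeletal muscle tropomodulin, was higher in L by 1.47 (2.55 to 5.40 against 1.21 to 1.49, adjusted p = 0.00148) and tmod3.S was lower by −1.84 (0.813 to 1.53 against 3.57 to 5.27, adjusted p = 0.000309). Mybph.S, too, was higher in L than in S, by 2.08 (adjusted p = 0.00151), a call lost with an offset of 8 (0.0721).

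Among the 10 probesets of myogenic factors, 3 were higher and 1 was lower in the lens. Of all probesets 22.9% were higher and 30.6% lower, so the higher count was near the share of all. Of the 10, 8 stayed below 4 on every array, and among all probesets that low 22.1% were higher and 7.55% lower. Myog.S read 1.72, 2.43 and 2.33 in L, 0.834, 0.785 and 0.939 in R and 0.906, 0.821 and 0.821 in S, with no overlap (1.33, SE 0.18, adjusted p = 0.000208, its cornea values below the 5th percentile). Myog.L was higher by 0.61 (adjusted p = 0.0283), without passing when S4 (0.0818), S3 (0.0692), S1 (0.0603), L1 (0.0698) or L3 (0.0894) was left out. No probeset of myod1, myf5 or myf6 passed. Mef2d is described with the homoeologs below.

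**Figure D3:**
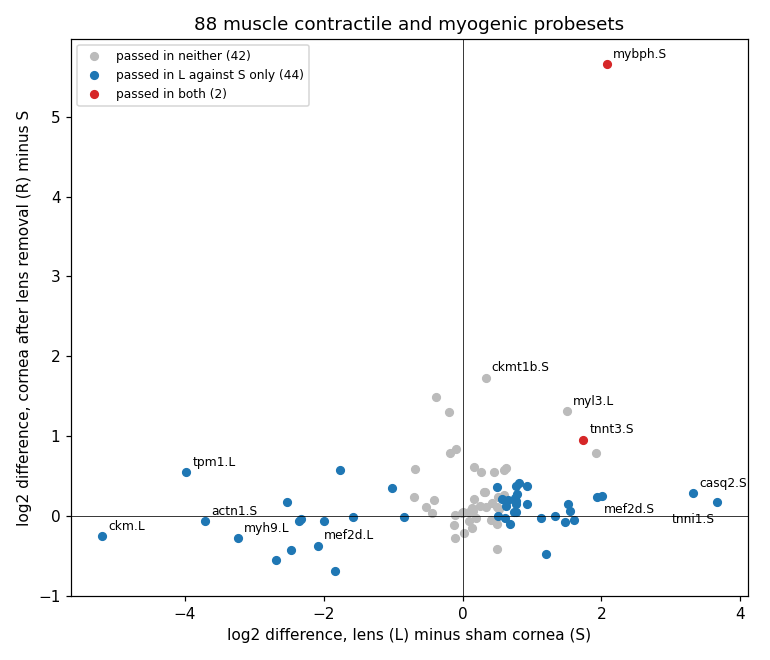
Each of the 88 probesets is placed by its log2 difference L minus S (horizontal) and R minus S (vertical), which share the S arrays. Points spread from −5.20 to 3.67 along the horizontal axis, while mybph.S, at 5.66, stands apart on the vertical axis, and only it and tnnt3.S passed in both comparisons.

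Lenses were also compared with the CLT corneas, using the same lens arrays. Here too tissue, surgery and time after it cannot be told apart. In L against R, 22 members were higher and 21 lower, where 18.6% of all probesets were higher and 30.2% lower. Tnni1.S (3.49, adjusted p = 2.8e-06) and casq2.S (3.04, adjusted p = 5.01e-06) had the largest excess in the lens. The largest deficits were in ckm.L (−4.95), tpm1.L (−4.53, adjusted p = 1.72e-05), actn1.S (−3.65) and mybph.S (−3.58, SE 0.38, adjusted p = 5.21e-05). Tnnt3.S was higher in L than in R by 0.78 (adjusted p = 0.00186), and the x probeset of tnni2.S was lower in L by −1.50 (adjusted p = 0.0036). Mybph.S thus read highest in R and tnnt3.S highest in L, both without overlap, and the x probeset of tnni2.S also had its highest arrays in R, without passing against S.

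Homoeologs and probesets of the same gene did not always go together. Both homoeologs were measured for 15 genes. In L against S, both passed for 7 of them, and in 2 of these, mef2d and tpm2, they went opposite ways. Mef2d.L read 5.87, 4.004 and 3.52 in L and 18.2, 21.3 and 16.2 in S (−2.08, SE 0.23, adjusted p = 5.75e-05), while mef2d.S read 2.01, 5.06 and 4.55 in L and 1.02, 0.936 and 0.854 in S (1.94, SE 0.36, adjusted p = 0.0015). The lens arrays were thus all below the corneas for one homoeolog and all above them for the other.

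Tpm2.L, of the muscle beta tropomyosin gene, was higher in L (2.19, 3.33 and 4.12 against 0.869, 1.06 and 1.16 in S, 1.60, adjusted p = 0.000631). Its homoeolog tpm2.S was lower in L (1.08, 1.14 and 1.36 against 2.53, 2.05 and 1.84, −0.84, adjusted p = 0.00408). Whether a homoeolog's probes reach the transcript of the other was not tested.

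Of 10 symbols with several probesets, myl12b.L had calls in opposite directions in L against S. Its brightest probeset read 131, 122 and 105 in L and 493, 471 and 459 in S (−1.99, adjusted p = 5.61e-06), and its dimmest read 2.35, 1.91 and 1.71 against 1.12, 1.47 and 1.28 (0.62, adjusted p = 0.0158), the second call being lost without L1 (0.0520) or S1 (0.0618). A further probeset of myl12b.L was lower in L by −1.77, and R3, at 77.9, stood above R1 and R2, at 31.8 and 38.1. That call did not pass with quantile normalisation (0.0928) or cyclic loess (0.0997).

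The 3 probesets of muscle creatine kinase, ckm.L, disagreed most. The first read 2.18, 4.32 and 1.53 in L, 82.6, 85.9 and 59.7 in R and 88.1, 94.0 and 85.4 in S, which gave the most negative L minus S difference of any member (−5.20, SE 0.34, adjusted p = 1.79e-06). In the corneas the other 2 read between 1.30 and 2.23, beside 1.97 to 3.72 in L, and 1 of them was higher in L than in R (0.91, adjusted p = 0.0115). In L against R the probesets of ckm.L were thus called in opposite directions.

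**Figure D4:**
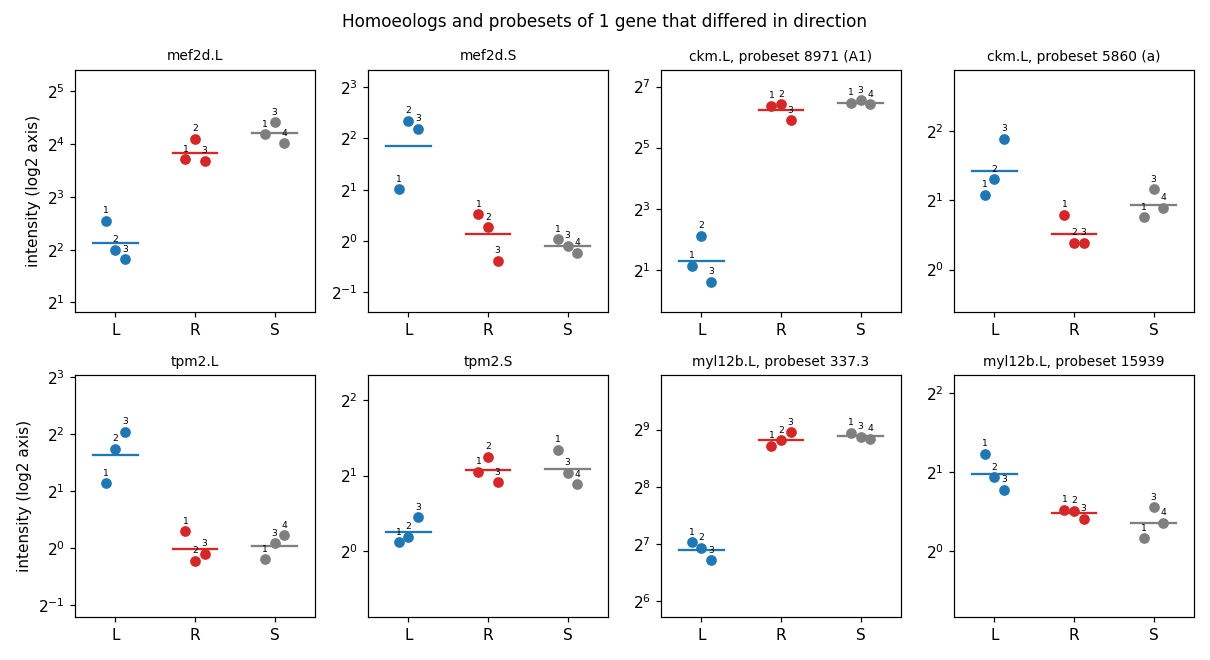
Points give the intensity on each array (log2 axis, a separate range in each panel) and lines the geometric mean of each group, for pairs of homoeologs (mef2d, tpm2) or of probesets of 1 gene (ckm.L, myl12b.L). In each pair the lens lies below the corneas in 1 panel and above the R arrays in the other, as for mef2d.L at 3.52 to 5.87 and mef2d.S at 2.01 to 5.06 in L.

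Some members were set by 1 array of a group. The slow and ventricular light chain gene myl3 read 20.1 in R1 but 2.32 and 2.14 in R2 and R3 for myl3.L, and 8.49 in R1 but 0.919 and 0.748 for myl3.S. The probeset shared by both homoeologs, which is not a member, gave 15.4, 1.12 and 0.973. R1 thus stood above the rest of its group in all 3 probesets, 8.64-fold above the second highest for myl3.L and 9.24-fold for myl3.S. Both member probesets carry the x ending, so their probes can also match other transcripts. Whether the 3 probesets report separate transcripts was not tested. Lens values of myl3.L were 2.92, 10.2 and 4.95, with S at 1.58 to 2.49. Without R1, L minus S passed for myl3.L (adjusted p = 0.0147) and myl3.S (0.00107), as it did not with all arrays (0.141 and 0.0692).

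R2 was high for mylc2a. Of its probesets, one read 7.20 in R2 and 1.93 in the next R array, and the probeset with the smallest p read 4.35, 17.4 and 12.05 in R against 3.32 to 3.58 in S (1.49, SE 0.46, adjusted p = 0.191). Without R1 that difference was 2.06 (adjusted p = 0.0168).

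Mitochondrial creatine kinase varied between arrays within every group. Ckmt1b.S read 9.71, 33.8 and 2.88 in L, 25.9, 71.6 and 9.42 in R and 4.97, 12.03 and 7.94 in S, with overlap of all groups (R minus S 1.73, SE 0.92, adjusted p = 0.424). Ckmt1b.L read 8.90, 15.8 and 3.42 in L, 14.8, 39.5 and 5.78 in R and 8.15, 21.2 and 12.02 in S. Within each group the order of arrays was the same for both. The summed photoreceptor genes had that order too, at 220, 317 and 125 in L, 116, 576 and 32.7 in R and 20.3, 21.4 and 21.0 in S. The S sums differed so little that their order says little. The part of these genes in the ckmt1b values was not tested.

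**Figure D5:**
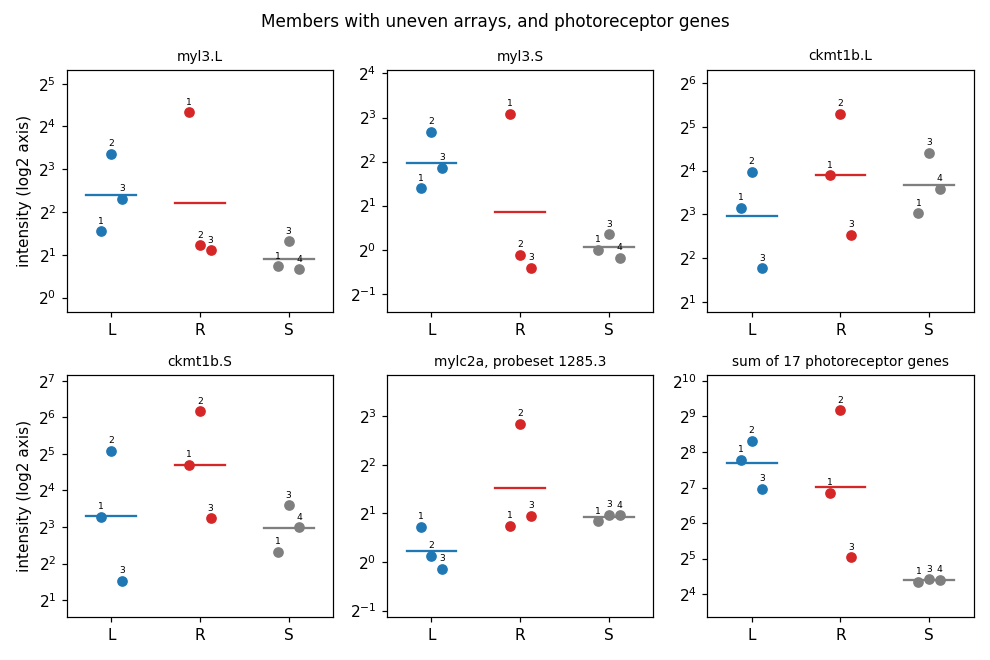
Points give the intensity on each array (log2 axis, array number above each point) and lines the geometric mean of each group of 3, for 5 members and for the sum of 17 photoreceptor genes. R1 is the high array for myl3 (20.1 and 8.49), and R2 is the highest of R for ckmt1b, mylc2a and the photoreceptor sum.

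Genes of skeletal muscle outside the naming rule were read for comparison. The list held 66 genes of excitation, the Z disc, metabolism and the neuromuscular junction, of which 27 were measured by 38 probesets. In R against S none passed in either direction (limma adjusted p under 0.05, with 3 higher and 1 lower at an unadjusted p under 0.05). In L against S 13 of the 38 were higher and 9 were lower, beside 22.9% and 30.6% of all probesets, and in L against R 10 were higher and 10 lower, beside 18.6% and 30.2%. The higher ones included the Z disc genes myoz2.L, at 3.49, 2.73 and 5.57 in L and 0.774 to 0.957 in S (2.12, adjusted p = 8.51e-05), and tcap.S, at 2.73, 4.72 and 4.68 against 0.762 to 1.10 (2.14, adjusted p = 0.000119).

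Lower in the lens were pygm.S, muscle glycogen phosphorylase, at 22.2, 18.0 and 16.3 against 59.4, 63.2 and 67.3 in S (−1.76, adjusted p = 0.000202), and the calcium pump gene atp2a1.S, at 38.9, 27.5 and 39.1 against 84.6, 120 and 95.4 (−1.51, adjusted p = 0.000269). For both genes a second probeset was higher in L (pygm.S 0.74, adjusted p = 0.00712, and atp2a1.S 0.66, adjusted p = 0.0316). A probeset of the homoeolog pygm.L read 39.2, 42.2 and 35.7 in L and 39.5, 52.8 and 40.0 in S, with overlap. In R it read 81.8, 90.7 and 64.2, above every S array but without passing. Smooth muscle markers outside the rule, 3 of 7 genes measured, summed to 10.8 to 13.1 in L, 15.4 to 25.0 in R and 17.8 to 20.8 in S, and none of their 5 probesets passed in R against S (none at an unadjusted p under 0.05 either).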

How the data were processed

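RNA of 9 pools was amplified with a NuGEN Ovation kit and hybridised by the authors to the Affymetrix *Xenopus laevis* GeneChip. The authors then computed RMA intensity values in GenePattern, and these were deposited on a linear scale. Which RMA options and versions they used is not given in the sources used here. Settings of the background step and of the normalisation bear on low intensities, where most members lie.

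Analysis began from log2 of the deposited values of 15476 probesets, with 135 controls excluded and neither an offset nor a filter on low values. Symbols came from the platform annotation of GEO, and all 88 members matched RefSeq by gene ID. Groups followed the sample titles. The 3 groups were fitted together in limma 3.58.1 (lmFit and eBayes, R 4.3.3), and two-sided p values were adjusted across the 15476 probesets by the Benjamini-Hochberg method, with calls made below 0.05. Python 3.11.15 prepared lists and figures. Since p values rest on the spread between pools, precision is limited by the number of arrays. In data simulated for R against S over 15476 probesets, 37 of 100 probesets changed 2-fold and 79 of 100 changed 4-fold were called, with 11 false calls. The simulated arrays were independent and had the same spread in every group. In the data S4 lay close to the other S arrays, and the median SD was 0.258 in L, 0.289 in R and 0.181 in S. The simulated counts therefore need not hold for these arrays.

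The members, the gene lists and the rule for named genes were chosen with earlier results of these data known. Named were all members that passed in R against S, the 12 largest differences each way in L against S and L against R without overlap, the smallest p of each role, the 10 brightest, members with 1 array over 3 times the next, mybph, and disagreeing homoeologs and probesets. Other genes named, such as mylpf.L, tnnc2.L, myf5.L, mybpc3.S, casq1.S, actn2.L, actn2.S, actn3.L and myog.L, were chosen after their values were seen. Alternatives were offsets of 1 and 8, quantile, cyclic loess and median scaling, a filter on low values, fits of the compared groups alone, trended and robust eBayes, array weights (statmod 1.5.0), a replicate block, each array left out, and the control probesets kept. Marker lists of other cell types served as sums, with a few of their genes named where 1 gene weighed heavily or went the other way.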

Additional observations from a re-analysis of the deposited data

How the results depend on the processing

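No member called in a comparison changed direction in any alternative. Calls kept in every alternative that tested the probeset numbered 1 of 2 in R against S, 28 of 46 in L against S and 33 of 43 in L against R. The filter on low values left many low members untested, and these were not counted as lost. In R against S the number of higher members was 1 with cyclic loess, with the 2 groups fitted alone and with trended and robust eBayes, 4 with array weights and 1 to 3 when an array was left out. It was 1 without S1 and without S4. Array weights put 372 of all 15476 probesets higher, beside 75 without weights. In L against S 17 members were higher with cyclic loess, beside 3442 of all 15476 probesets. With the filter on low values, which tests fewer probesets, 6 members were higher, beside 2026 of all 8840 tested. Between 22 and 32 members were higher when an array was left out. In L against R the filter left 5 members higher, beside 1869 of the 8840, and leaving out an array gave 15 to 23. Of the other skeletal muscle probesets, an offset of 8 put 1 higher in R than in S, and array weights put 1. In L against S 3 of them were higher with the filter and 9 to 13 when an array was left out, and in L against R 4 with cyclic loess, 3 with the filter and 5 to 10 when an array was left out, with 6 without R1 and 5 without R2. Quantile normalisation moved the median L minus S difference of all probesets from 0.02 to 0.14 and that of L minus R from −0.07 to 0.11, and the calls over all probesets in L against S from 3539 higher and 4732 lower to 4115 and 3561, with 25 higher and 14 lower among the members. The cause of the other changed counts was not tested.

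The labels number the L and R arrays 1, 2 and 3 and the S arrays 1, 3 and 4, and nothing in them says that a number marks a shared animal or day. Deviations of same-numbered arrays correlated at −0.10 to 0.13 over all probesets, and the numbers were not taken as pairs. That range includes pairs with S, whose corneas came from other tadpoles by the study's legends. Same-numbered L and R arrays correlated at 0.022, 0.133 and 0.091. Each value lay above those of L and R arrays with different numbers, −0.125 to 0.018. However, the largest correlation between arrays of different groups was 0.196, for R2 and S3, which have different numbers. Whether L and R arrays of the same number share tadpoles was not tested. With the replicate number as a block, 1 member was higher in R than in S, where tnnt3.S had an adjusted p of 0.237, and 18 members and 8 of the other skeletal muscle probesets were higher in L than in S. Number 4 belonged to S4 alone, so this fit also took S4 out of the comparison of groups. Calls lost under the block therefore do not measure pairing alone, and with only S4 left out tnnt3.S had an adjusted p of 0.113. Among the L against S calls lost under the block were those of tpm4.L (adjusted p = 0.0609), myog.L (0.0533), actn3.L (0.0679) and the dimmest myl12b.L probeset (0.105). Low intensities, at or under the 5th percentile of about 1, limit the size of any difference there.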
